A study of Mus musculus with 4 samples.

Results

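N6-methyladenosine (m6A) is a mark on messenger RNA, and the enzymes described here place or remove another kind of methyl mark, the one on histones and DNA. To see which of their transcripts carried m6A in mouse natural killer (NK) cells, the peaks of a methylated RNA immunoprecipitation sequencing (MeRIP-seq) experiment were taken for every protein-coding gene whose symbol begins with Kmt, Kdm, Setd, Ezh, Dnmt, Tet, Ehmt, Nsd or Suv39h. The annotation held 53 such genes. Of these, 41 had at least 1 peak, with 93 distinct peaks among the 20727 in the whole list.

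The RNA came from NK cells sorted from the spleen of C57BL/6 mice, and there were 4 libraries, 2 of m6A immunoprecipitate and 2 of input RNA. No gene deletion or second treatment separated the groups. According to the study's methods, the NK cells of all libraries had first been expanded in the animals with a plasmid that expresses IL-15, so the list describes cytokine-expanded cells and not resting ones. Poly(A) RNA was fragmented, fragments bound by an antibody against m6A were sequenced beside unselected fragments, and the excess of the former over the latter at a stretch of transcript was called a peak.

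Each peak carried 1 fold enrichment, the ratio of immunoprecipitate to input made by the authors, and 1 unadjusted p-value of the peak caller, given as log10 p. Both describe all libraries together. No value per library was in the list, so the depth is unknown, no error between replicates could be given, and no difference below was tested. Intervals are 95% Wilson intervals, which cover counting error only. Those over peaks count each peak as independent, although many genes had several and 10 enzyme peaks overlapped another of their gene. They may therefore be too narrow. A fold enrichment is neither the abundance of a transcript nor the share of its copies that carry m6A.

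Histone lysine methyltransferases transfer methyl groups to single lysines, most of them through a SET domain, and lysine demethylases take them off again with either a flavin or an iron and 2-oxoglutarate as cofactor. Methylation of histone H3 at lysines 4 and 36 is known for active genes, and methylation at lysines 9 and 27 for silent ones. The Dnmt enzymes methylate cytosine in DNA and the Tet enzymes oxidise that methyl group. In lymphocytes these marks are known to hold and change the expression programmes of the cells. On mRNA, m6A is placed by a complex around METTL3, usually within the sequence DRACH (D stands for A, G or T, R for A or G, and H for A, C or T), of which GGAC is the best known core, and is known to be frequent near stop codons and in 3′ UTRs.

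The labelled cell type was checked against marker genes by the presence of a peak, which needs reads of the transcript. All 10 NK cell markers looked for (among them Ncr1, Eomes and Gzmb) had a peak. So did 3 of 5 T cell markers and 4 of 4 macrophage and monocyte markers, while the T cell markers Cd4 and Cd8a had none. Over all coding genes, 46.3% had a peak. Since the macrophage and monocyte list was as complete as the NK cell list, the presence of peaks cannot establish the labelled cell type. Transcripts of genes that mark other blood cells were thus read in the libraries, and their part in the enzyme peaks was not tested.

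Peaks were found on most enzyme transcripts. The 41 genes were 77.4% of the 53 (64.5 to 86.5%), beside 46.3% of all 21951 protein-coding genes. The enzyme transcripts were long, with a median of 5935 nt against 2540 nt over all coding genes. Among enzyme genes with transcripts of 4026 to 8469 nt, 20 of 27 had a peak (74.1%), beside 57.4% of the 4718 other coding genes in that range of length. This share rests on 27 genes and the difference was not tested, so whether the excess holds at like length is not known. No peak was found on Dnmt1, Dnmt3b, Dnmt3c, Ezh1, Kdm3a, Kdm4d, Kdm5c, Kdm5d, Kdm8, Kmt2b, Setd4 or Setd6, and no peak assigned to another gene lay within these 12 genes either. Since depth is unknown, a missing peak cannot be told apart from a transcript too scarce to call one.

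**Figure D1:**
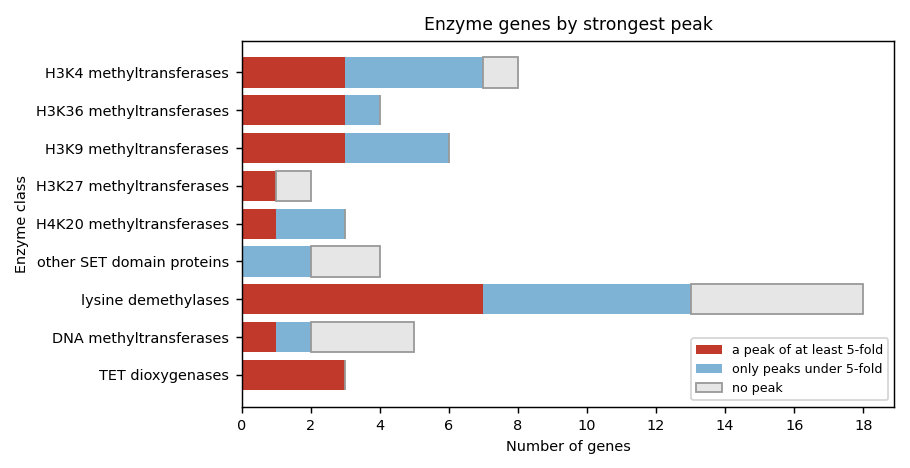
Number of genes in each enzyme class (bars to scale from 0), split by the strongest peak of the gene. Red, a peak of at least 5-fold (22 genes in all); blue, only peaks under 5-fold; grey, no peak (12 genes). Each of the 3 Tet genes was assigned a strong peak, but only those of Tet1 touched a coding isoform. Of the 5 Dnmt genes, 3 had no peak at all.

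A peak of at least 5-fold, the enrichment that the study required for its pathway analysis, is called strong here. Strong peaks were found in 22 of the 41 genes (53.7%, 38.7 to 67.9%), beside 43.4% of all coding genes with a peak. Counted by peak, 30 of 93 were strong (32.3%, 23.6 to 42.3%) against a background of 29.5%. The median fold enrichment of the enzyme peaks was 2.76 with an interquartile range of 1.72 to 6.64, and that of all peaks of coding genes was 2.37 with 1.68 to 6.64. By significance, 50 of 93 (53.8%, 43.7 to 63.5%) had a p under 0.001 beside 62.3% of all peaks of coding genes. Both criteria were met by 16 enzyme peaks in 13 genes, where the background was 15.9% of peaks (the enzymes, 16 of 93). By both criteria the enzyme peaks lay near the background of the list.

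**Figure D2:**
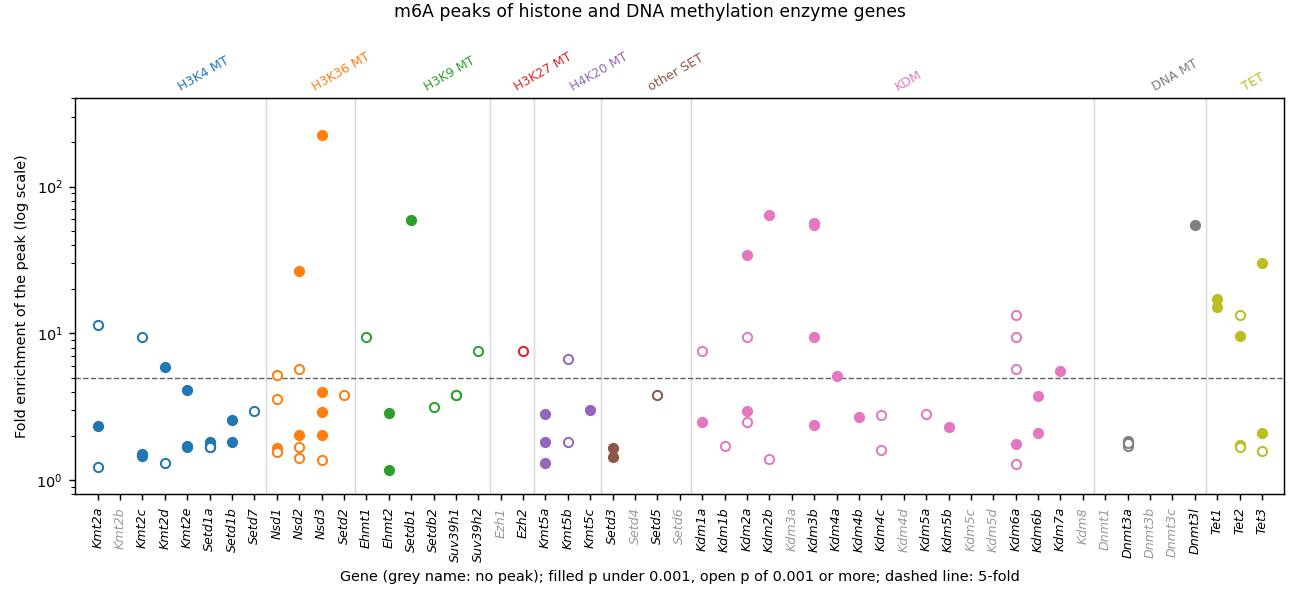
Fold enrichment (log axis) of every peak of the 53 enzyme genes, grouped by class; MT stands for methyltransferases and KDM for lysine demethylases. Filled points have a p under 0.001, open points do not, the dashed line is at 5-fold and grey names are genes without a peak. Most points lie between 1 and 5, and Nsd3 stands above all others at 226.

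Among the H3K4 methyltransferases, 7 of 8 genes had a peak, and 19 peaks in all gave this class a median fold enrichment of only 1.78. Kmt2d, a large enzyme that marks enhancers, had the most significant peak of the class at 5.92-fold with a log10 p of -44.6. This peak (chr15:98832089-98832899, GRCm38, minus strand) lay wholly in the 3′ UTR, with its centre 2006 nt past the stop codon, and a second Kmt2d peak of 1.31-fold followed closer to the end of the transcript. Kmt2a, whose gene is rearranged in many leukaemias, had the highest fold of the class, 11.4, in a coding exon of 4237 nt (chr9:44821344-44821974), but with a log10 p of only -2.09. Its peaks in the 3′ UTR had folds of 2.33 and 1.23, the first with a log10 p of -5.85. The strong peak of Kmt2c was likewise weak in significance (9.48-fold, log10 p of -1.69). Setd1a, a catalytic subunit of a COMPASS complex, had 5 peaks, none above 1.81-fold. Of these, 4 formed a pair of overlapping regions in a coding exon of 1056 nt that also belongs to the annotated gene Gm49388 on the same strand, so their reads cannot be assigned to 1 gene.

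Kmt2e, a relative of these enzymes whose own SET domain is thought to be inactive, had a coding peak of 4.12-fold and a log10 p of -26.3 that joined more than 1 exon (chr5:23464765-23467179). It was one of the 2 enzyme peaks just below the 5-fold line, beside an Nsd3 peak of 4.0-fold, and just above it stood Kdm4a at 5.14 and Nsd1 at 5.22. Both 3′ UTR peaks of Kmt2e, at 1.68 and 1.7-fold, overlapped each other and exons of Srpk2 on the opposite strand over all 420 nt. Setd1b had 2 peaks in its 3′ UTR (2.56 and 1.81-fold). Setd7, an H3K4 monomethyltransferase, had 1 peak of 2.95-fold at the very end of its transcript, 5793 nt past the stop codon.

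All 4 H3K36 methyltransferase genes had peaks, 15 in total. The highest fold enrichment and the lowest p of any enzyme peak were those of Nsd3, at 226-fold with a log10 p of -53.2 (chr8:25640307-25640607, plus strand). The next enzyme peak reached 64.5. On the Nsd3 transcript with the longest coding sequence this peak touched only 31 nt, just ahead of the start codon. It lay completely, however, within the first exon of another coding isoform that starts at this internal position and has the same length of coding sequence, 4341 nt.

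The other 4 peaks of Nsd3 were also placed by isoform. They were labelled 3′ UTR in the list although they lay far inside the gene, between chr8:25674475 and chr8:25678725. On the full-length transcript they covered at most 10 nt each of any exon. Short isoforms with 1968 or 1866 nt of coding sequence end in this stretch (the short NSD3 protein is known to lack the catalytic SET domain of the long one), and the 4 peaks were centred in the 3′ UTRs of those. Their folds were 2.02, 4.0, 1.36 and 2.92, and 3 of them had a p under 0.001, the lowest with a log10 p of -21.4 (chr8:25675734-25677023). No peak was called in the 5267 nt 3′ UTR of the full-length transcript.

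**Figure D3:**
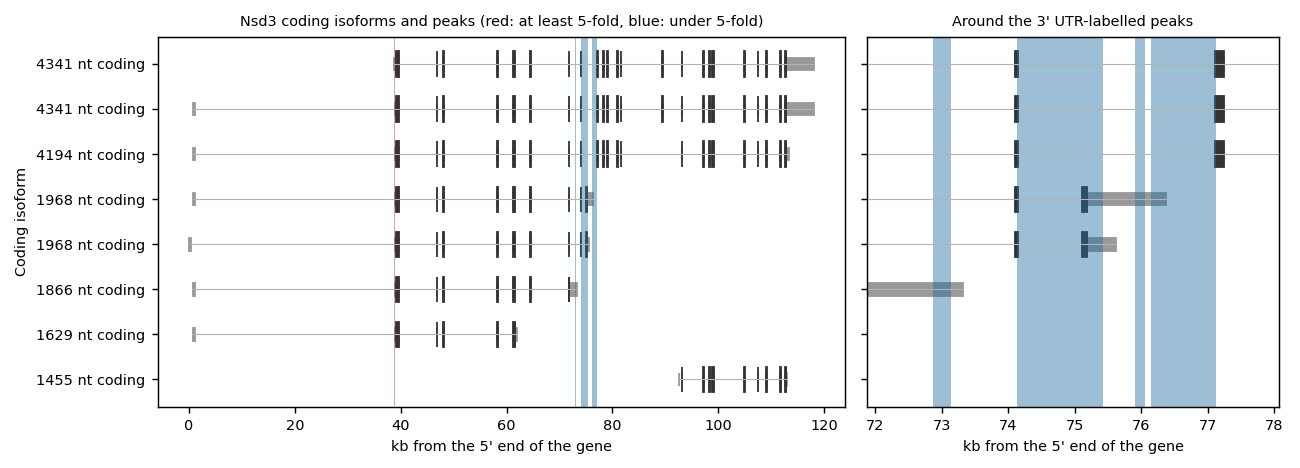
The 8 coding isoforms of Nsd3 drawn to scale, with distance from the 5′ end of the gene in kb on the horizontal axis and one isoform per row, named by the length of its coding sequence. Dark boxes are coding and grey boxes untranslated exon; vertical bands are peaks from first to last base, introns included (red, the 226-fold peak; blue, the 4 peaks under 5-fold). The right panel enlarges the blue peaks, which sit on the ends of the short isoforms.

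Nsd2 likewise had 5 peaks over several isoforms. On the transcripts with the longest coding sequence, one of them was the single enzyme peak of at least 2-fold and a p under 0.001 centred within 200 nt of the stop codon, at 2.02-fold with a log10 p of -8.44 and a centre 18 nt before the end of the stop codon (chr5:33895040-33895279). The 4.0-fold peak of Nsd3 lay 73 nt past the stop codon of a short isoform. The strongest Nsd2 peak, at 26.6-fold and a log10 p of -5.57 (chr5:33878269-33879018), overlapped no exon of a coding isoform, and a peak of 5.69-fold lay in the long 3′ UTR of a short isoform. Nsd1 had strong and weaker peaks at its 5′ end (5.22 and 3.56-fold, on short isoforms of 477 coding nt) and 2 weak ones in its 3′ UTR. Setd2, the enzyme that trimethylates H3K36, had a single peak of 3.79-fold in a coding exon of 4286 nt, with a log10 p of -1.31.

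Every one of the 6 H3K9 methyltransferase genes had a peak, yet only 3 of their 8 peaks had a p under 0.001. Setdb1, which silences retroelements, had the strongest (58.8-fold, log10 p of -13.0), over the first exon and the region upstream of it (chr3:95356983-95357572). The full 590 nt of that span were also covered by Gm37500 on the opposite strand. The most significant peak belonged to Ehmt2, one of the pair of enzymes that make dimethylated H3K9, at 2.88-fold and a log10 p of -16.3 over coding exons (chr17:34903354-34905244). A second Ehmt2 peak near the stop codon was only 1.17-fold, the lowest fold of all 93. Its partner Ehmt1 had a 9.48-fold peak that touched no coding isoform. Setdb2 had 3.16-fold and Suv39h2 7.59-fold in their 3′ UTRs, both with a log10 p above -3, and Suv39h1 had 2 overlapping peaks of 3.79-fold at its 5′ end with log10 p values of -1.34 and -1.38.

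Of the H3K27 methyltransferases, the catalytic subunits of PRC2, Ezh2 had 1 peak and Ezh1 none. The Ezh2 peak of 7.59-fold had a log10 p of -1.64 and spanned 17428 nt of genome from the first exon (chr6:47577794-47595221). Of its 420 exonic nt, 175 lay on coding isoforms, and its span overlapped Gm44282 on the opposite strand over 190 nt. The H4K20 methyltransferases all had peaks. Kmt5a, which adds the first methyl group, had 3 (1.30, 1.81 and 2.80-fold, rising toward the 3′ end, with log10 p down to -10.2 at chr5:124461978-124462308), all in the 3′ UTR of an isoform other than the one with the longest coding sequence. Kmt5b had the class's strongest peak (6.64-fold, log10 p of -2.00, chr19:3806040-3806280), again at the end of a short isoform, and Kmt5c had 3.01-fold with a log10 p of -8.31 in its 3′ UTR. Among the remaining Setd genes, Setd3, a histidine methyltransferase of actin, had 2 peaks in its last exon (1.65-fold with a log10 p of -11.6 at chr12:108106580-108106999, and 1.43-fold). Setd5 had 1 peak of 3.79-fold and a log10 p of -1.64 (chr6:113153345-113153435), and Setd4 and Setd6 had none.

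The lysine demethylases were the largest class, with peaks in 13 of 18 genes. Kdm6b, the H3K27 demethylase that is induced in activated immune cells, had the most significant one, 3.75-fold with a log10 p of -38.8, centred 314 nt past the stop codon (chr11:69399377-69399647). Its relative Kdm6a, on the X chromosome, had 5 peaks from the 5′ UTR to the 3′ UTR. Of these 3 were strong (5.69, 9.48 and 13.3-fold), but the 1 with a p under 0.001 was a peak of 1.75-fold near the stop codon with a log10 p of -3.29. Of the 9.48-fold peak, 18 of 330 nt belonged to coding isoforms, and of the 1.75-fold peak 29 of 61 nt. Strong and significant peaks in the 3′ UTR were those of Kdm7a (5.51-fold, log10 p of -20.2, chr6:39136922-39137311) and Kdm4a (5.14-fold, log10 p of -12.9, chr4:118136957-118137316). That of Kdm7a lay 6094 nt past the stop codon, the greatest distance seen. The Kdm4a peak ended exactly where the annotated gene ends, as did a peak each of Setd7, Kmt5a, Kmt5c, Setd5, Kdm3b, Kdm4b, Kdm4c and Kdm6a. Kdm4b, a paralogue of Kdm4a, had 2.67-fold with a log10 p of -10.3 in the same part of its 3′ UTR. Kdm4c had 2 peaks of 1.60 and 2.76-fold whose p-values were not under 0.001.

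The highest folds among the demethylases were found off the 3′ UTR. Kdm2b, a subunit of a Polycomb complex that binds CpG islands, reached 64.5-fold with a log10 p of -14.4 (chr5:122876195-122877662), and Kdm3b, an H3K9 demethylase, 56.9 and 55.0-fold with log10 p of -12.6 and -12.1 (chr18:34800196-34800824 and chr18:34799563-34800822). The pair of Kdm3b peaks overlapped each other and the antisense gene Gm26538, and another (9.48-fold, log10 p of -4.78, chr18:34831027-34831357) lay downstream. None of these 4 peaks touched a coding isoform. Each of both genes also had a weak peak in the 3′ UTR, of 1.40-fold in Kdm2b and 2.37-fold in Kdm3b. Kdm2a had 34.1-fold with a log10 p of -7.76 (chr19:4394021-4394830), of which 39 of 810 nt belonged to coding isoforms, beside 2.97-fold in its 3′ UTR. Kdm2a also had a 9.48-fold peak off every coding isoform, with a log10 p of -1.69, and a coding peak of 2.48-fold. The remaining peaks reached at most 7.59-fold. They lay in Kdm1a (7.59-fold at the start codon with a log10 p of -2.01, and 2.49-fold), Kdm1b (1.72-fold), Kdm5a (2.84-fold) and Kdm5b (2.29-fold, log10 p of -3.59). The 2.49-fold peak of Kdm1a overlapped Luzp1 on the opposite strand over 331 nt.

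Of the DNA methyltransferase genes 1 of 5 had a strong peak and of the Tet genes 3 of 3, counts too small for a comparison. Dnmt3a, the main de novo enzyme in blood cells, had 4 peaks, all weak (1.86, 1.72, 1.79 and 1.80-fold) and all in its 3′ UTR of 6696 nt, the most significant at chr12:3913274-3913364 with a log10 p of -3.13. Dnmt3l, a catalytically inactive partner known mainly from germ cells, had a single peak of 55.0-fold with a log10 p of -12.1 (chr10:78041947-78063622). This peak ran over the whole gene and covered 100% of the exonic length of Dnmt3l. Part of its span also overlapped exons of Aire on the opposite strand, and which gene its reads came from was not tested.

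All 3 Tet genes had a strong peak with a p under 0.001. Tet1 had 2, 15.2-fold (log10 p of -4.54, chr10:62819597-62838231) and 17.1-fold (log10 p of -3.33, chr10:62878327-62908996), which spanned 18635 and 30670 nt of genome across several exons. Tet2 had 4 peaks. The most significant, 9.61-fold with a log10 p of -41.6 (chr3:133538785-133539114), and a 13.3-fold peak with a log10 p of -2.50 lay on non-coding isoforms, and those in its 3′ UTR had 1.73 and 1.67-fold. The 30.3-fold peak assigned to Tet3 (log10 p of -6.35, chr6:83417440-83420753) overlapped 0 nt of any Tet3 exon and 3314 nt of 5430434F05Rik on the same strand, whereas the peaks that did lie on Tet3, in the 3′ UTR of 1 isoform, had 2.09-fold (log10 p of -9.42) and 1.57-fold.

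Strong peaks and coding transcripts were thus often apart. Of the 93 enzyme peaks, 10 (10.8%) touched no exon of a coding isoform, beside 9.84% in other coding genes. All 10 were among the 30 strong peaks and none among the 63 weaker ones. In other coding genes, 17.6% of strong and 6.58% of weaker peaks lay off the coding isoforms. Of the 16 strong peaks with a p under 0.001, 7 touched no coding isoform (in Nsd2, Kdm2b, Kdm3b, Tet2 and Tet3). Leaving such peaks out, an alternative chosen after the values were seen, left 17 genes with a strong peak, without Ehmt1, Kdm2b, Kdm3b, Tet2 and Tet3.

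**Figure D4:**
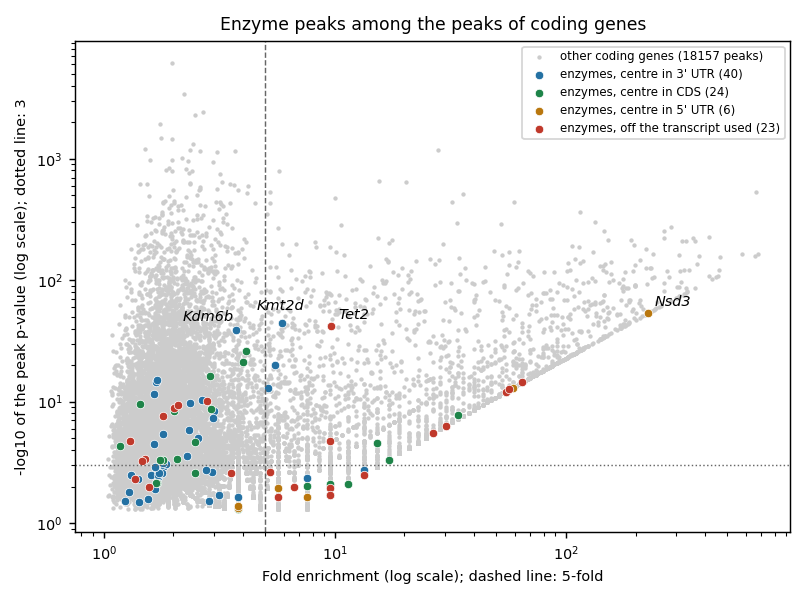
Fold enrichment (horizontal, log axis) against the -log10 of the peak p-value (vertical, log axis) for the 93 enzyme peaks, coloured by region, over the 18157 peaks of other coding genes in grey. The dashed line marks 5-fold and the dotted line a p of 0.001. Kmt2d and Tet2 stand within the grey cloud at lower p-values than the other strong enzyme peaks of like fold, while Nsd3, Kdm2b, Setdb1 and Kdm3b lie along its lower edge, where the p-value follows the fold enrichment.

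The fold enrichments of strong peaks were not spread evenly. In the whole list, 78.9% of the 6323 peaks between 5 and 60-fold were whole multiples of 1.897 within the rounding of 3 digits, and so were 21 of the 28 enzyme peaks in that range, with 9.48-fold alone in 5 enzyme peaks. Kmt2d, Kdm7a, Kdm4a and the 9.61-fold peak of Tet2 did not lie on this grid. Where it came from was not tested, and the folds on it, which are most of the strong ones, should not be read as finely measured ratios.

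On the transcripts, 70 of the 93 peaks could be placed by the centre of their exonic part on the transcript with the longest coding sequence. The centre lay in the 3′ UTR in 40 (57.1%, 45.5 to 68.1%), in the coding sequence in 24 (34.3%) and in the 5′ UTR in 6 (8.57%), beside 54.2% in the 3′ UTR for other coding genes. All 40 lay in the last exon, and 28 genes had one. Of the 23 peaks left unplaced, 13 lay on other coding isoforms of 7 genes, 11 of them in the 3′ UTR of that isoform (in Kmt2c, Nsd2, Nsd3, Kmt5a, Kmt5b and Tet3).

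Close to the stop codon there were few. Within 200 nt of it lay 5 centres (7.14%, 3.09 to 15.7%), in Nsd2, Ehmt2, Setdb2 and Kdm6a, against 23.4% of the placed peaks of other coding genes. Transcript length differed too, as given above. In the range of 4026 to 8469 nt the shares were 12.1% (4 of 33, 4.82 to 27.3%) for the enzymes and 12.7% for other coding genes. The part of length in the gap was not tested. The peaks in the 3′ UTR likewise lay far out, at a median of 1121 nt past the stop codon against 652 nt in other genes, and 55.0% against 37.0% of them were over 1000 nt past it. The 3′ UTRs in question were longer too, with a median of 2472 against 1253 nt. Between 1136 and 3911 nt of 3′ UTR, the shares over 1000 nt out were 12 of 20 enzyme peaks (38.7 to 78.1%) and 58.8% in other genes. These comparisons within ranges of length were added after the first values were seen.

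**Figure D5:**
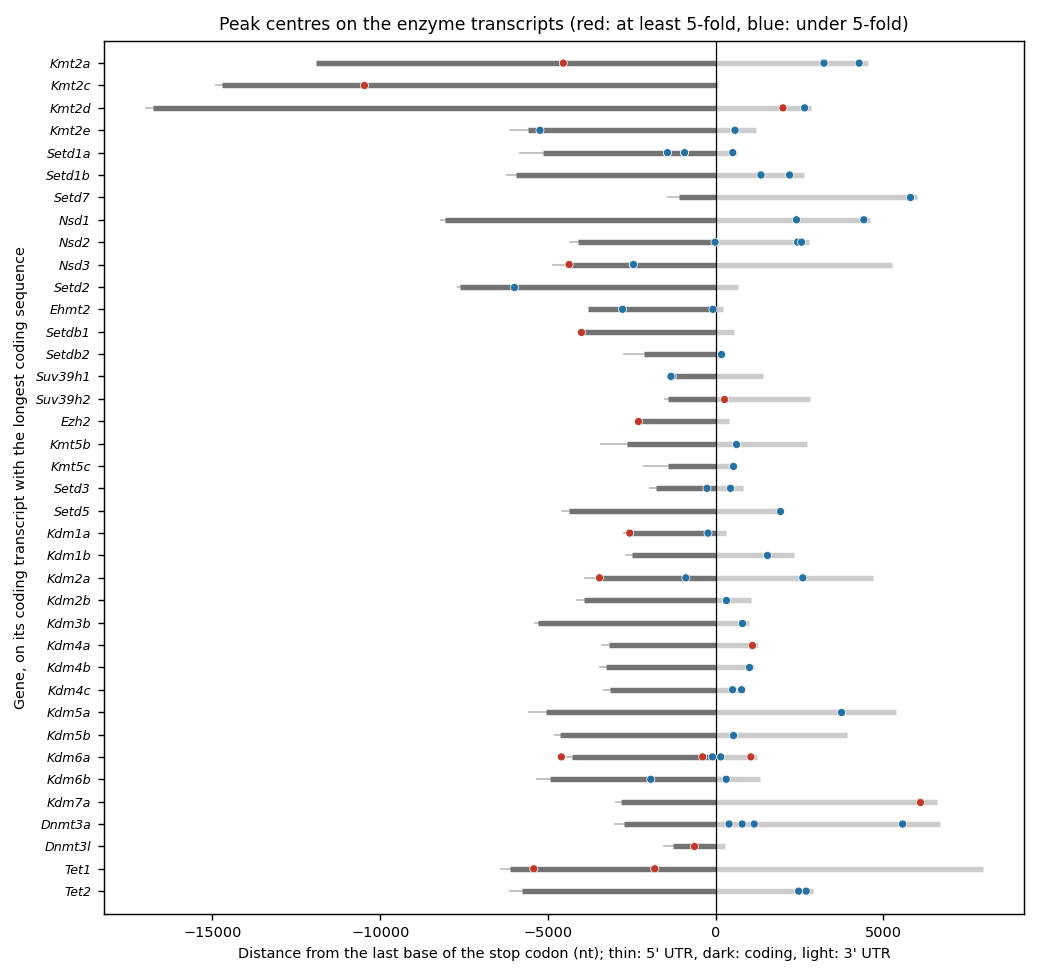
Centres of the 70 placed peaks on the enzyme transcripts, as distance in nt from the last base of the stop codon (black line). Thin lines are 5′ UTR, dark bars coding sequence and light bars 3′ UTR, to scale; red points are at least 5-fold, blue points under 5-fold. Most 3′ UTR points are blue and lie well to the right of the line, and the red points lie mostly on the coding sequence or at the 5′ end.

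Fold enrichment differed by region. The 43 peaks in the 3′ UTR or near the stop codon had a median of 1.81 (interquartile range 1.67 to 2.90), and 5 of the 40 in the 3′ UTR were strong (Kmt2d, Suv39h2, Kdm4a, Kdm6a and Kdm7a). The 21 coding peaks away from the stop codon had a median of 3.79 (2.08 to 9.48). Some of them barely touched the coding transcript. The Nsd3 peaks of 4.0 and 2.92-fold had 9 and 10 nt on it. The 34.1-fold peak of Kdm2a had 39 of 810 nt on coding isoforms, and the 9.48-fold peak of Kdm6a 18 of 330 nt. How far the median rests on such peaks was not tested. Other coding genes had medians of 1.99 and 3.79, in the same order. The values 3.79 and 9.48 lie on the grid of folds described above. The medians of the coding peaks, and their match with other genes, should therefore not be read as finely measured. Of those 21 coding peaks, 11 lay in exons over 400 nt, as in Kmt2a, Setd1a, Setd2, Kdm6b and Tet1, beside 27.8% in other genes. The 11 include the overlapping Setd1a pairs in the exon shared with Gm49388, each peak counted separately. This share was not compared at like transcript length. On the log2 scale the medians of the enzyme peaks differed by -1.07 between these regions over all peaks, and by -0.351 among those with a p under 0.001.

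The sequence under the peaks is shown for 11 of the 12 last-exon peaks of at least 2-fold with a p under 0.001 that lay within 1 exon, those in which a site can be located best (that of Kdm3b is counted but not printed), and for the 2 most significant other peaks, Nsd3 and Tet2. Each line gives 25 nt of the GRCm38 reference genome (RefSeq), 5′ to 3′ on the strand of the gene, with the DRACH site nearest the peak centre in capitals, or a GGAC site where the peak held one. The choice was made after the values were seen. A match does not show that the site is methylated.
Kmt2a (chr9:44803599-44803623, minus strand): ttctggttagAGACAaagtgggggg
Kmt2d (chr15:98832421-98832445, minus strand): tgtttgagaaTAACAactcccccac
Setd1b (chr5:123167335-123167359, plus strand): tttttcttggGAACTttgtttcttg
Nsd2 (chr5:33895246-33895270, plus strand): cccaccccaaGGACCcagctcctag
Kmt5c (chr7:4747367-4747391, plus strand): aggccaggtgTGACCtcatcttttt
Kdm2a (chr19:4316538-4316562, minus strand): tcaataaataAAACTcctaaagtca
Kdm4a (chr4:118137149-118137173, minus strand): gggtgggatgGGACTagagggcaac
Kdm4b (chr17:56402776-56402800, plus strand): cccagatgaaGGACTtcatattttt
Kdm5b (chr1:134631888-134631912, plus strand): atctcagcaaTAACTtctatgttgg
Kdm6b (chr11:69399524-69399548, minus strand): acagacacaaGGACCaggctccggc
Kdm7a (chr6:39137154-39137178, minus strand): tttgaaatcaGGACAgttgttggct
Nsd3 (chr8:25640400-25640424, plus strand): cccagtttaaGGACAgcctgggctc
Tet2 (chr3:133538944-133538968, minus strand): gactggcctcAGACCtgcggcagtc

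All 12 last-exon peaks held a DRACH site, as did 99.3% of 5928 peaks of other coding genes of like exonic length (210 to 811 nt), so its presence says little. A GGAC was held by 6 of the 12 (Nsd2, Kdm3b, Kdm4a, Kdm4b, Kdm6b and Kdm7a). The peak of Kmt2d, the most significant 3′ UTR peak of the enzymes, held 13 DRACH sites and no GGAC. Over all placed enzyme peaks of 210 to 811 nt, 15 of 30 held a GGAC (33.2 to 66.8%), against 71.1% of the other peaks of that length.

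Per kb, the placed enzyme peaks had 19.5 DRACH sites and the rest of the same transcripts 20.6, while other coding genes had 20.3 and 20.4. By this count neither the enzyme peaks nor the others were denser in DRACH than their surroundings. For peaks of at most 500 exonic nt the values were 18.8 and 20.6 in the enzymes and 19.6 and 20.4 in other coding genes. The study itself reported DRACH motifs as enriched in the m6A peaks of its NK cells. It used a motif search, which is another measure than sites per kb and was not repeated here. For GGAC the enzyme peaks had 3.05 per kb against 4.17 elsewhere on their transcripts. The gap was smaller with a p under 0.001 (3.57 against 4.29) and absent in the strong enzyme peaks (3.81 against 3.75). Within the 3′ UTR alone the values were 1.49 per kb in peaks (13 sites in 8752 nt) and 3.44 per kb in the rest of the same 3′ UTRs, beside 3.01 and 2.92 in other coding genes. The GGAC core was thus scarcer under the 3′ UTR peaks of the enzymes than around them, in a count of 13 sites.

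Several enzymes act in complexes whose other subunits were looked up in the same list. Of 11 COMPASS subunits, which work with the Kmt2 and Setd1 enzymes, 8 had a peak and 1, Ash2l, a strong one (5.69-fold). Of 9 PRC2 subunits, partners of Ezh1 and Ezh2, 8 had a peak and 3 (Rbbp4, Jarid2 and Aebp2) a strong one, the highest being 15.2-fold in Rbbp4. Among 24 further methylation enzymes, readers and partners, 15 had a peak and 9 a strong one. For the writers and erasers of m6A itself these numbers were 9 and 5 of 11, with no peak on Mettl3, and among 394 Zfp genes 211 had a peak (53.6%). The enzymes had a peak in 41 of 53. Over all coding genes 46.3% had a peak, and 43.4% of those with a peak had a strong one. The lists are small, with intervals for genes with a peak of 43.4 to 90.3% for COMPASS and 56.5 to 98.0% for PRC2. No order among the groups can be read from them.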

How the data were processed

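The members and lists were chosen with earlier results of these data known. Per the study's methods and the labels, reads were trimmed by the authors, mapped with HISAT2 (mouse genome, GRCm38 in the labels), and turned into peaks with exomePeak, which ChIPseeker annotated. The deposited list holds 1 set of peaks for 2 immunoprecipitates and 2 inputs. How replicates were combined is not given in the sources used here. Its fold enrichment is a ratio of immunoprecipitate to input, and its significance a score, the log10 of the unadjusted p-value, both made by the authors. It has 0 columns with a value per sample, so depth, replicate error and tests were not available.

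Exact repeats (24 rows) were dropped. Gene symbols, isoforms and 3′ UTRs came from GENCODE M21 for GRCm38, which may differ from the annotation the authors used, and 19 of 12351 gene identifiers in the list were not in it. Pseudogenes and non-coding genes with matching symbols were left out. A peak was placed by the centre of its exonic part on the coding transcript with the longest coding sequence. A peak span includes the introns between its ends. Motifs were counted on the strand of the gene in the RefSeq GRCm38.p6 genome. Placement and motif counting were tested on simulated data. All genes matching the symbol rule were named, with full values for the strongest and most significant peak and the gene with the most peaks of each class, strong peaks with a p under 0.001, peaks at the stop codon of at least 2-fold, and 4 peaks around 5-fold. Alternatives changed the fold and p thresholds, the transcript model, the window, the motif and the peaks counted. Python 3.11.15, pandas 2.3.3, NumPy 2.4.6 and SciPy 1.17.1 were used. The results of 2 further cell type marker lists are not reported here.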

Additional observations from a re-analysis of the deposited data

How the results depend on the processing

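No paired analysis was possible because the list has no value per library, and for the same reason leaving out each replicate was planned and not run. Of 34 alternative values for 9 results, 24 stayed within their interval or, for counts and medians, within 1.5 times the reported value. Genes with a strong peak fell from 22 to 12 at 10-fold and to 13 with a p under 0.001 required, and strong peaks from 30 to 14 and 16. The median fold enrichment was 5.22 when the strongest peak of each gene was taken. The share of centres in the 3′ UTR was 74.1% when the centre of the genomic span was used, since peaks centred in an intron then drop out, and the share near the stop codon was 17.1% within 400 nt. GGAC in place of DRACH, a rarer motif, gave 3.05 sites per kb. The difference in median log2 fold between 3′ UTR or stop codon peaks and other coding peaks, -1.07, was -0.351 with a p under 0.001 and -0.698 for peaks of at most 500 exonic nt; the cause was not tested. Placing each peak on the coding isoform that holds most of it, chosen after seeing the data, gave 63.9% for the 3′ UTR and 7.23% for the stop codon window.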
